A study of Mus musculus with 6 samples.

Results

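Keratins and vimentin, the proteins of cytoplasmic intermediate filaments, were followed in hepatocytes that received Sox4. There were 7 genes, Krt8, Krt18, Krt7, Krt19, Krt20, Krt23 and Vim, taken by gene symbol from a table of 53599 symbols, and 4 of them, Krt8, Krt18, Krt23 and Vim, had enough counts to be tested among the 12691 genes that were. RNA-Seq was performed on hepatocytes harvested 4 days after intravenous injection of adeno-associated virus serotype 8 (AAV8), a vector that delivers genes to the liver. The Sox4 group (3 libraries) received AAV8-TBG-HA-Sox4-P2A-Cre, a construct for HA-tagged Sox4 followed by Cre across a P2A self-cleaving peptide, and the empty vector group (EV, 3 libraries) received AAV8-TBG-Cre, so that both groups carried Cre. The labels give the genotypes as WT and Sox4, and the methods describe male Rosa-LSL-Cas9-EGFP mice on a C57BL/6J background, injected between weaning and young adulthood, in which Cre also switches on Cas9 and EGFP. TBG is a promoter active in hepatocytes, and the cells were enriched on Percoll without sorting, so cells of other types can remain. The viral dose given to the EV mice of these libraries was not given in the sources used here. The labels do not tie each library to a mouse, whereas the study describes its RNA-Seq replicates as separate animals, and p-values measure the spread between these libraries.

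Intermediate filaments give epithelial cells mechanical resilience. Keratin filaments are obligate heteropolymers that pair a type I (acidic) with a type II (basic) chain, whereas the type III protein vimentin polymerises with itself and is typical of mesenchymal, endothelial and blood-derived cells. Adult hepatocytes are known for relying on the single pair Krt8 (type II) and Krt18 (type I). Bile duct epithelium adds Krt7 (type II) and Krt19 (type I), which is why these serve as biliary markers. Krt20 is a type I keratin of gut epithelium, and Krt23 is a type I keratin described in stressed liver and in ductular reactions.

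The libraries held 15090629 to 16964860 counts. Levels are given as CPM, counts per 1000000 counts of a library whose size was adjusted by the trimmed mean of M-values (TMM), and a library with no count of a gene allows up to 3 counts, or 0.150 to 0.231 CPM, which covers counting error only. For Sox4 itself the EV libraries gave 2, 0 and 3 counts and the Sox4 libraries 21697, 15097 and 11816. The hepatocyte label was checked with 10 hepatocyte markers, all of which were measured, with Alb at 99191 ± 12801 CPM in EV and 66525 ± 5764 CPM in Sox4 (SD, n = 3). Of these markers 8 were called lower (5 with library size alone) and none higher (median log2 fold change -1.08). Among all tested genes 26.0% were called lower, and 12.8% with library size alone. Summed, the markers lay between 122670 and 146070 CPM in EV and between 82551 and 93988 CPM in Sox4. After TMM scaling the Sox4 libraries counted as 1.48 times the size of the EV libraries, against 1.07 times by total counts. Over all tested genes the median log2 fold change was 0.04 on the TMM scale and 0.51 with library size alone, and 52.7% and 79.9% of the called genes were higher on these scales, so changes are relative to the TMM scale.

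The sequences just before the transcription starts of Krt8, Krt18 and Vim are shown because these members were called higher in the test below. Each is the 250 bases upstream of the RefSeq start in GRCm38.p6, a different build from the GRCm39 used for the counts, and is written 5′ to 3′ on the strand of the gene. Capitals mark matches to any of 7 motifs searched on both strands.
Krt8: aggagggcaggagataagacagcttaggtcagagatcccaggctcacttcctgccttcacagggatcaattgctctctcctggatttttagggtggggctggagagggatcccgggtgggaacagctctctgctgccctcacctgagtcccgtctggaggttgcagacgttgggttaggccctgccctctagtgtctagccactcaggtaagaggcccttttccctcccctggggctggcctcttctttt
Krt18: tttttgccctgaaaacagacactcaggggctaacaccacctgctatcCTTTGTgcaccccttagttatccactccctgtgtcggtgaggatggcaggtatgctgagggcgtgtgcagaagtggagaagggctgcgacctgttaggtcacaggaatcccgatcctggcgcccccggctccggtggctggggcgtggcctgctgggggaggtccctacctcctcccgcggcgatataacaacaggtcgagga
Vim: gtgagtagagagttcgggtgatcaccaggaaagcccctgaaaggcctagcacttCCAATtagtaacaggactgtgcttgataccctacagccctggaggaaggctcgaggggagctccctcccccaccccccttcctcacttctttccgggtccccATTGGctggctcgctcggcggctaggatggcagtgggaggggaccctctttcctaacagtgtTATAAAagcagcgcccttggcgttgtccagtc
The Krt8 window is chr15:102004343-102004592 on the minus strand, the Krt18 window is chr15:102027966-102028215 on the plus strand, and the Vim window is chr2:13574061-13574310 on the plus strand. The first motif was that of AP-1, spelled TGANTCA, which stands in 6.75% of the 32851 RefSeq windows of this length. For SOX factors the letters were ACAAAG, in 16.5% of windows, or the variant spelled ACAATG, in 10.7% of them. For TEAD factors they were GGAATG, in 12.6% of windows. The core promoter motifs were the TATA box, spelled TATAAA and found in 12.4% of windows, the GC box, spelled GGGCGG and found in 32.7%, and the CCAAT box, found in 33.8%. None of these letter strings stands in the Krt8 window. The Krt18 window holds ACAAAG on the opposite strand, read as CTTTGT, at 203 to 198 bases before the start. The Vim window holds TATAAA at 32 to 27 bases before the start, and a CCAAT box at 196 to 192 bases and, on the opposite strand, at 94 to 90 bases. No match overlaps another. A match describes the letters and is not a binding site. Of the 7 members, 6 matched a window. The windows not shown, of members not called, held matches as well. Krt23 held the SOX variant ACAATG, Krt20 held GGAATG and TATAAA, and Krt7 held GC boxes.

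Krt8 and Krt18, the keratin pair of hepatocytes, were both about 2-fold higher after Sox4. For Krt8 the EV libraries gave 4829, 4937 and 5265 counts and the Sox4 libraries 15416, 14482 and 11927. In CPM these were 372, 375 and 382 in EV and 773, 740 and 604 in Sox4. The groups did not overlap, and the Sox4 libraries were spread more widely than the EV libraries, which lay close together. Krt8 rose from 376 ± 5.30 to 706 ± 89.2 CPM (SD, n = 3), which is 0.91 on the log2 scale (SE 0.11, adjusted p = 4.26e-04 by the edgeR quasi-likelihood test with Benjamini-Hochberg adjustment). Krt18 had 3040, 3531 and 3455 counts in EV and 11326, 9726 and 8017 counts in Sox4, or 234, 268 and 251 CPM against 568, 497 and 406 CPM. Again all Sox4 libraries lay above all EV libraries. Krt18 rose from 251 ± 16.9 to 490.2 ± 80.9 CPM (log2 change 0.97, SE 0.15, edgeR adjusted p = 4.87e-04). With Vim, 3 of the 4 tested members were called higher at an adjusted p under 0.05 and none lower. Vim reached the minimum count of 10 of the expression filter in every Sox4 library but in EV 3 alone of the EV group. It thus entered the test through the group where it was high. Among all tested genes 55.1% were called, 29.0% higher and 26.0% lower, and 33.1% had every Sox4 library above every EV library and 29.9% every Sox4 library below, so such calls were frequent. With library size alone the log2 fold changes were 1.38 for Krt8 and 1.44 for Krt18. Within the Sox4 group the order of the libraries was the same for Sox4 (1088, 771 and 599 CPM), Krt8 and Krt18, highest in Sox4 1 and lowest in Sox4 3. With 3 libraries this is a description.

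**Figure D1:**
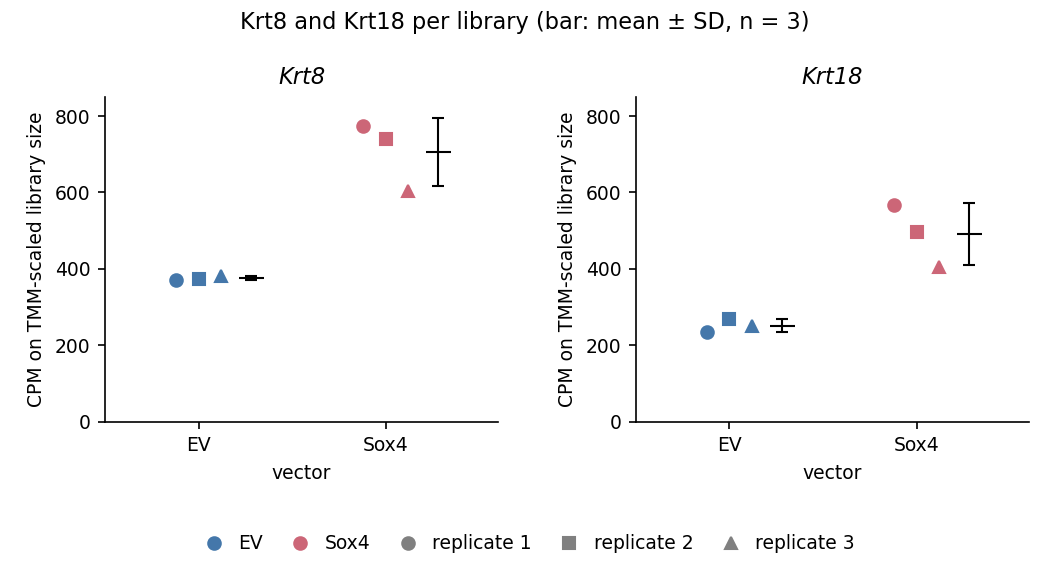
Level of Krt8 (left) and Krt18 (right) in each library, in CPM on TMM-scaled library size, with EV in blue, Sox4 in red, marker shape for the replicate number and a bar for mean ± SD (n = 3). The Sox4 libraries lie between 604 and 773 CPM for Krt8 and between 406 and 568 CPM for Krt18, all above the EV libraries.

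Per length both transcripts were among the abundant messages. Divided by the union of annotated exons in GENCODE M21 (1958 bases for Krt8, 1437 for Krt18), Krt8 lay between 190.0 and 195 CPM per kb in EV and between 309 and 395 in Sox4, and Krt18 between 163 and 187 and between 283 and 395. Krt8 ranked 258 of 12442 genes with a known length in EV and 87 in Sox4. Krt18 moved from 285 to 92.

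Since keratins assemble as pairs, the balance between the chains was compared. The ratio of Krt8 to Krt18 counts was 1.59, 1.40 and 1.52 in EV 1 to 3 and 1.36, 1.49 and 1.49 in Sox4 1 to 3. Per length these became 1.17, 1.03 and 1.12 in EV and 0.999, 1.09 and 1.09 in Sox4, near 1. Whether both messages were equal in number cannot be told from this. Of the 50-base words of Krt8, 29.7% also stand in other transcripts, against 0.721% for Krt18, and how such reads were counted is not known. The groups overlapped. On the log2 scale the ratio was 0.59 ± 0.09 in EV and 0.53 ± 0.07 in Sox4, a difference of -0.06 (SE 0.07, two-sided exact permutation test, p = 0.4, where 3 against 3 libraries cannot go below 0.1). The ratio is taken within a library and does not depend on scaling. Summed over the members of each type, type II against type I, the difference was again -0.06 (SE 0.07, exact permutation p = 0.4), because Krt8 and Krt18 made up 99.5% to 99.8% of the counts of all keratin genes in each library.

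**Figure D2:**
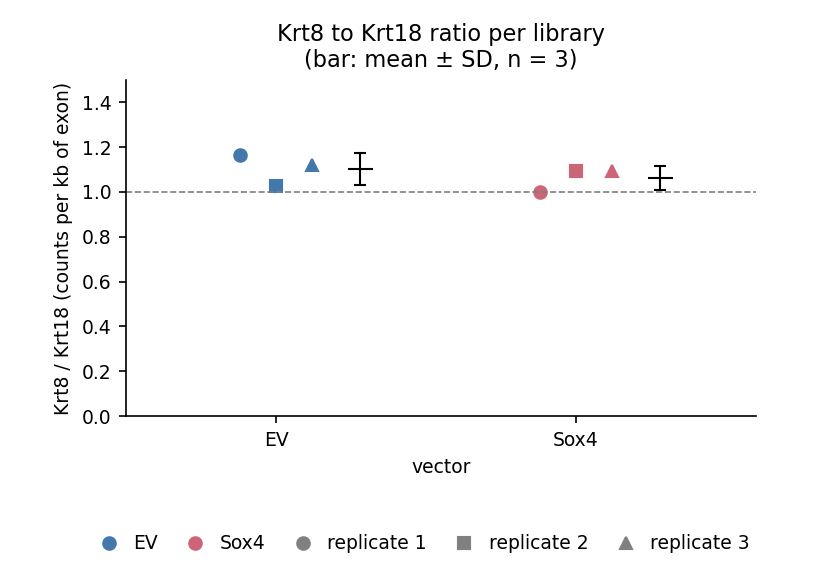
Ratio of Krt8 to Krt18 in each library, as counts per kb of annotated exon (vertical axis, no unit), for EV (blue) and Sox4 (red) with mean ± SD (n = 3) and a dashed line at 1. The libraries lie between 0.999 and 1.17, and the groups overlap. The line at 1 takes no account of the sequence that Krt8 shares with other transcripts.

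Krt8 shares sequence with a processed pseudogene, Krt8-ps. Of the 50-base words in the Krt8 transcript, 29.7% also stand in another annotated transcript, 26.9% in Krt8-ps, whereas for Krt18 the share was 0.721%, for Krt7 0.916% and for Krt19, Krt20, Krt23 and Vim it was 0. How reads that map to several places were counted was not given in the sources used here, so the level of Krt8 is less certain than that of Krt18. Krt8-ps had 21, 14 and 25 counts in EV and 68, 94 and 49 in Sox4, with the groups apart (log2 fold change 1.24, SE 0.34, edgeR adjusted p = 0.0141). It did not pass without EV replicate 2 (adjusted p = 0.0591) or Sox4 replicate 2 (0.0694), and 57.4% of its words stand in Krt8, so its counts cannot be told apart from those of Krt8. Gm36026 overlaps exons of Krt8, shares 50-base words with it and had 0, 1 and 2 counts in EV and 11, 12 and 15 in Sox4 (log2 fold change 2.97, SE 0.35, edgeR adjusted p = 0.00743). The strand setting of the counts is not given in the sources used here. The counts of Gm36026 therefore cannot be told apart from those of Krt8 either.

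The genes next to Krt8 and Krt18 on the chromosome were not called higher. In RefSeq gene order Krt8 and Krt18 lie side by side at the end of the type II keratin cluster of chromosome 15, where Krt18 is the type I member. On the Krt8 side, Krt78 had no count in any library and Krt79 had at most 1. On the Krt18 side, Eif4b, a translation initiation factor, fell from 282 ± 13.7 to 181 ± 27.4 CPM (log2 change -0.64, SE 0.13, edgeR adjusted p = 0.00323), though with library size alone it was at -0.17 and did not pass. Next to it, Tns2, a focal adhesion protein, was at -0.28 (edgeR adjusted p = 0.0942). Of 26 keratin genes on chromosome 15, 5 exceeded 3 counts in any library, Krt80, Krt7, Krt5, Krt8 and Krt18, and 18 had no count. Of 27 on chromosome 11, the type I cluster, 4 exceeded 3 counts, Krt10, Krt20, Krt23 and Krt19, and 21 had no count.

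The biliary keratins were near the limit of detection in both groups. Krt19 had no count in EV 1, 2 or 3 and 9, 2 and 7 counts in Sox4 1 to 3. All Sox4 libraries had at least 2 counts, 1 of them at or under 3. Over the group, 18 counts in Sox4 corresponded to 0.304 CPM, and the 3 counts that a total of 0 allows over the EV group would correspond to 0.0752 CPM. The 95% counting interval of the ratio of Sox4 to EV began at 2.96 for Krt19 and covers counting error only. The difference in mean CPM was 0.303 (two-sided exact permutation test, p = 0.1, the smallest that 3 against 3 can give). When no expression filter was applied, so that 24036 genes were tested and 18.1% were called higher, Krt19 passed (edgeR adjusted p = 0.0111). Krt7 had no count in EV and 2, 1 and 7 counts in Sox4, of which 7 of 10 came from Sox4 3. The counting interval of its ratio began at 1.51, and the difference in mean CPM was 0.169 (exact permutation p = 0.1) but 0.0757 without Sox4 3. Krt7 did not pass with no filter (edgeR adjusted p = 0.0794). Per length, Krt19 reached 0.163 ± 0.0971 CPM per kb in Sox4 and Krt7 0.0239 ± 0.0231 (SD, n = 3), against 341 for Krt18.

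Other cholangiocyte genes were examined beside these keratins. Of a list of 15 cholangiocyte markers without keratins, 9 were tested, 6 were called higher, none was called lower, and the median log2 fold change was 1.18. Among all tested genes 29.0% were called higher. Epcam and Cldn4, both called higher, had at most 5 counts in an EV library. They passed the filter through the Sox4 group, which raises this count and this median. Summed, the 15 markers lay between 48.7 and 59.4 CPM in EV and between 123 and 129.6 CPM in Sox4. Spp1 (osteopontin) rose by 2.89 on the log2 scale (SE 0.23, edgeR adjusted p = 2.99e-06), whereas Pkhd1 was at 0.13 and Sox9 at 0.23 without passing, though Pkhd1 passed as higher with library size alone (0.60) and both lay below 0 when 1 EV library was left out. Sctr, the secretin receptor, had at most 2 counts in a library. In a bulk sample, more cells of a type and more RNA per cell cannot be told apart, and their part in the counts of Krt7 and Krt19 was not tested. Mesothelial cells, which cover the liver and also express these keratins, were represented by 7 markers, none of which passed the filter, with Upk3b and Muc16 at no count and Msln at 1 count in all libraries together. Their summed level was 0.0771, 0.0759 and 0.0726 CPM in EV and 0.601, 0.153 and 1.01 CPM in Sox4, without overlap. In each EV library this sum was a single count of 1 gene, and in Sox4 1 it was Lrrn4 alone. The lack of overlap thus rests on counts near the floor. Lrrn4 had 0, 1 and 0 counts in EV and 12, 2 and 13 in Sox4, with the lowest Sox4 count in the library where Krt19 and Krt7 were also lowest. For Krt7 that order rests on 1 count against 2. No other of the 7 markers exceeded 5 counts in a library. The part of mesothelial cells in the counts of Krt7 and Krt19 was not tested.

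Krt20 and Krt23 did not pass the test. Krt20 had no count in EV and 1, 0 and 5 counts in Sox4, so the groups overlapped and 5 of its 6 counts came from Sox4 3. The counting interval of its ratio began at 0.793, below 1, so no direction was detectable at this depth. The difference in mean CPM was 0.101 (exact permutation p = 0.4), and its edgeR adjusted p was 0.191 with no filter. Krt23 had 4, 10 and 19 counts in EV and 33, 41 and 27 counts in Sox4. In CPM, EV 3 (1.38) lay just above Sox4 3 (1.37), so that the groups overlapped, although every Sox4 library held more raw counts than every EV library. Its level was 0.816 ± 0.538 CPM in EV and 1.71 ± 0.366 CPM in Sox4 (SD, n = 3). The log2 fold change was 1.05 (SE 0.55, edgeR adjusted p = 0.0979), as large as that of Krt18 but with a wider error. Krt23 passed as higher without EV replicate 3 (1.64, adjusted p = 0.0329) and with library size alone (1.52, adjusted p = 0.0215, where 51.0% of all genes were called higher). Without EV replicate 1, the library with the fewest counts, it was at 0.65.

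**Figure D3:**
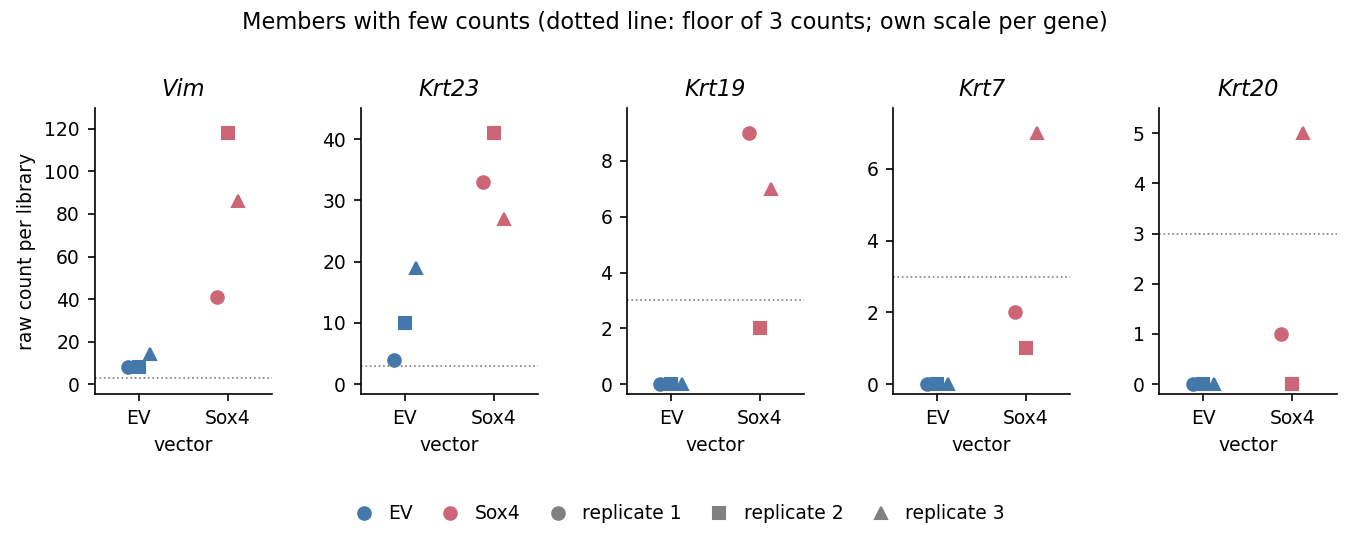
Raw counts per library of the 5 members with few counts, Vim, Krt23, Krt19, Krt7 and Krt20, each on its own linear scale, with EV in blue and Sox4 in red and a dotted line at the floor of 3 counts. Krt19, Krt7 and Krt20 had no count in any EV library, and Vim reached 118 counts in Sox4 2.

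Vim, the type III filament gene, had the largest fold among the tested members from a low base. Its counts were 8, 8 and 14 in EV and 41, 118 and 86 in Sox4, or 0.616, 0.607 and 1.02 CPM against 2.06, 6.03 and 4.36 CPM. The groups did not overlap, and Sox4 1, the library with the most Krt8 and Krt18, had the least Vim of the Sox4 group. Vim rose from 0.747 ± 0.234 to 4.15 ± 1.99 CPM (SD, n = 3), a 5.49-fold change (log2 fold change 2.46, SE 0.49, edgeR adjusted p = 0.00153). It passed under every alternative in which it was tested, between 2.09 without Sox4 replicate 2 and 2.92 with library size alone. Per length it stayed far below the hepatocyte keratins, at 0.157 ± 0.0493 CPM per kb in EV and 0.874 ± 0.421 in Sox4, rank 11501 and 10139 of 12442 genes.

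Markers of other liver cells that express Vim were examined beside it. Of 13 stellate cell and fibroblast markers 5 were tested and 3 were called higher, with a median log2 fold change of 2.06. Among all tested genes 29.0% were called higher and 26.0% lower. That median is the value of Col1a2, which had 0, 7 and 9 counts in EV and 20, 35 and 45 in Sox4. Col1a2 thus passed the filter through the Sox4 group. The summed level of the 13 markers was 8.86, 27.3 and 47.1 CPM in EV 1 to 3 and 135, 144 and 84.2 CPM in Sox4 1 to 3, without overlap. Without Reln, a sum added after the values were seen, the other 12 markers came to 1.77, 4.71 and 9.51 CPM in EV and 8.37, 26.8 and 33.4 CPM in Sox4, which overlapped, with Sox4 1 lowest of its group as for Vim. Reln, an extracellular glycoprotein listed as a stellate marker, made up most of the sum of all 13. It stood at 126, 117 and 50.8 CPM in Sox4 1 to 3, highest in Sox4 1, where the other 12 were lowest of the group. Reln rose by 2.13 (SE 0.82, edgeR adjusted p = 0.0439), while the collagens Col3a1 (1.93) and Col1a2 (2.06) were called higher and Dcn (2.14) was not. Each of these 3 calls was lost without EV 2 (adjusted p 0.0652 to 0.107) and without Sox4 2 (0.0780 to 0.109), and Dcn passed as higher with library size alone, with DESeq2, with a mean count of at least 50, with the replicate block and without EV 3 or Sox4 1. Reln did not pass with the replicate block or with no filter either. Over the libraries left out in turn, between 0 (without Sox4 2) and 8 (without Sox4 1) stellate markers were called higher. Acta2, the actin of activated stellate cells, had no count in EV and 4, 0 and 1 counts in Sox4. Of 11 macrophage markers 10 were tested and 5 were called higher (median 0.98), and their sum lay between 14.6 and 33.0 CPM in EV and between 34.6 and 75.3 CPM in Sox4, lowest in Sox4 1, as for Vim. That count of 5 was 11 without Sox4 1, 3 without Sox4 2 and 7 with the replicate block. With library size alone it was 9, where 51.0% of all tested genes were called higher. Of 10 endothelial markers 9 were tested, 2 were higher and 1 was lower (median 0.43), and their sums overlapped, 19.6 to 29.8 CPM in EV against 16.4 to 39.8 CPM in Sox4. The 2 higher calls were lost without EV 1, EV 3, Sox4 2 or Sox4 3, and the lower call, Stab2, without EV 2, EV 3, Sox4 1 or Sox4 2 and with library size alone. Among 8 lymphoid and neutrophil markers 1 was tested, Ptprc, and it was not called. Within the Sox4 group, Sox4 1 was also lowest for the endothelial, cholangiocyte and lymphoid and neutrophil sums (16.4, 123 and 1.40 CPM). It was not lowest for the mesothelial sum or for the stellate sum with Reln.

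Vim was then set against these sums within each library, which removes scaling. Its CPM divided by the summed endothelial markers was 0.0314, 0.0210 and 0.0341 in EV 1 to 3 and 0.125, 0.177 and 0.109 in Sox4 1 to 3, and divided by the summed macrophage markers 0.0421, 0.0216 and 0.0308 against 0.0594, 0.0896 and 0.0579. These ratios were higher in every Sox4 library than in every EV library, as was the ratio to the lymphoid and neutrophil sum (0.267 to 0.800 in EV, 1.41 to 2.53 in Sox4). Divided by the stellate and fibroblast sum it was 0.0696, 0.0222 and 0.0216 in EV and 0.0153, 0.0419 and 0.0518 in Sox4, which overlapped, as they did without Reln (0.107 to 0.348 in EV, 0.131 to 0.246 in Sox4). The ratios to the cholangiocyte sum (0.0104 to 0.0173 in EV, 0.0167 to 0.0465 in Sox4) and to the mesothelial sum (8 to 14 in EV, 3.42 to 39.3 in Sox4) overlapped as well. The ratios were chosen after the values were seen and are given with no test, and the part of these cells in the Vim counts was not tested.

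**Figure D4:**
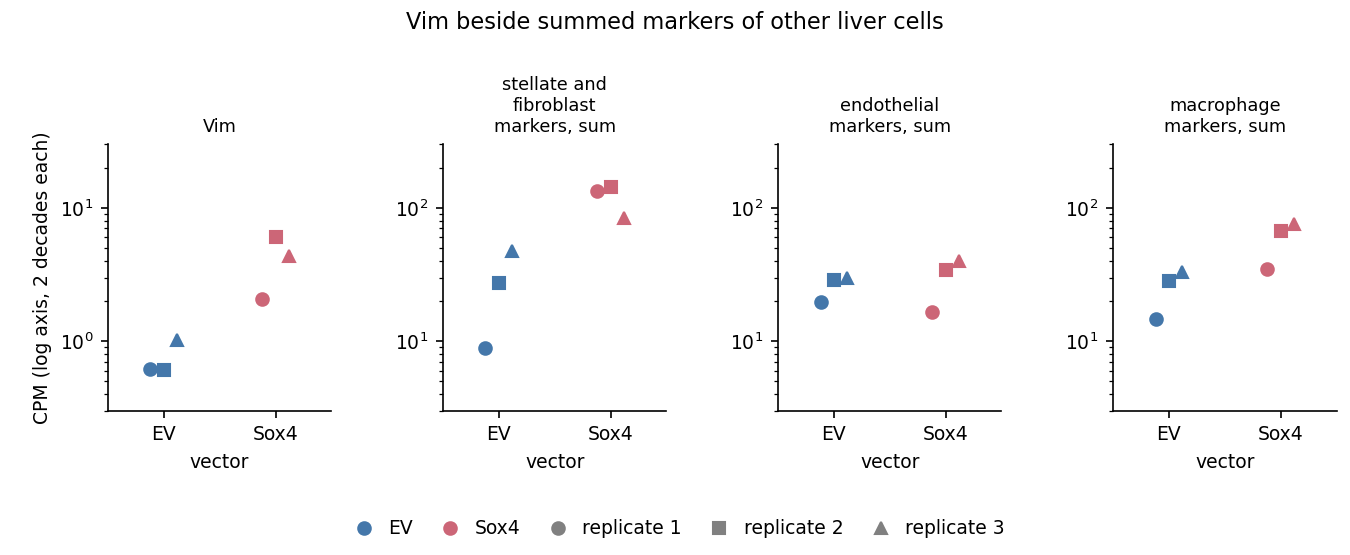
Level of Vim and summed level of the stellate and fibroblast, endothelial and macrophage markers in each library, in CPM on log axes that each span 2 decades (the Vim panel starts a decade lower). Vim, the stellate sum and the macrophage sum are higher in all Sox4 libraries than in all EV libraries, while the endothelial sums overlap, as does the stellate sum without Reln.

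Other keratins and other cytoplasmic filament genes were mostly silent. Of 23 further type I and 23 further type II keratin genes in the table, Krt10, a keratin of differentiated epidermis, was tested. It had 8, 14 and 21 counts in EV and 24, 11 and 28 in Sox4, with a log2 fold change of -0.01 (SE 0.49, edgeR adjusted p = 0.984) that lay above 0 with library size alone (0.46), with no filter (0.03) and without EV 3 (0.32) or Sox4 2 (0.29). Krt5, a keratin of basal epithelia, had no count in EV and 5, 3 and 1 counts in Sox4. Of 12 other cytoplasmic filament genes Synm was tested. Synm encodes synemin, which copolymerises with vimentin or desmin, and it had 5, 9 and 3 counts in EV and 44, 53 and 74 in Sox4. It rose from 0.429 ± 0.236 to 2.89 ± 0.788 CPM (log2 change 2.74, SE 0.42, edgeR adjusted p = 7.66e-04). Nes (nestin), which also needs a partner such as vimentin, was below the filter with 2 counts in the EV group and 30 in the Sox4 group, a ratio of 10.1 with a 95% counting interval of 2.56 to 87.3. Des (desmin) had at most 8 counts in a library.

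The nuclear lamins, which line the nuclear envelope, were measured in full. Lmna (lamin A/C) had 914, 852 and 804 counts in EV and 3871, 3034 and 2593 in Sox4 and rose from 64.5 ± 6.02 to 160.1 ± 31.6 CPM (log2 change 1.31, SE 0.18, edgeR adjusted p = 8.46e-05). Lmnb1 rose by 1.77 (SE 0.38, adjusted p = 7.00e-04). Lmnb2 was at 0.07 (SE 0.15) and passed as higher with library size alone (0.54), while without Sox4 1 it was at -0.09.

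Plakins, the cytolinkers that tie intermediate filaments to junctions and to other filaments, were higher in 4 of 6 tested genes and lower in none, with a median log2 fold change of 0.87. Among all tested genes 29.0% were higher and 26.0% lower. Desmoplakin (Dsp), which anchors keratins at desmosomes, rose from 117 ± 7.51 to 205 ± 9.83 CPM (log2 change 0.81, SE 0.07, edgeR adjusted p = 2.32e-04), close in size to Krt8 and Krt18. Macf1, a linker of actin and microtubules, rose by 0.93 (SE 0.08, adjusted p = 8.90e-05) and periplakin (Ppl) by 1.83 (SE 0.30, adjusted p = 2.01e-04). Envoplakin (Evpl), the partner of periplakin in the cornified envelope, had 3, 3 and 2 counts in EV and 81, 77 and 63 in Sox4 (edgeR adjusted p = 2.53e-05), a ratio of 18.6 with a 95% counting interval of 9.28 to 43.6. Evpl passed the filter through the Sox4 group. Plectin (Plec) was at -0.19 and dystonin (Dst) at -0.15, without passing. With library size alone both lay above 0 and Dst passed as higher (0.32).

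Desmosome genes moved in both directions. Of 8 tested, 2 were higher and 3 lower, with a median log2 fold change of 0.08. Plakophilin 1 (Pkp1), a plaque protein of stratified epithelia, had 0, 0 and 3 counts in EV and 695, 576 and 760 in Sox4, a ratio of 456 with a 95% counting interval of 156 to 2213 (edgeR adjusted p = 6.71e-07). The plaque protein plakoglobin (Jup) rose by 0.45 (SE 0.19, edgeR adjusted p = 0.0360), a call that was lost without any of 4 libraries (EV 2, EV 3, Sox4 1 or Sox4 2, 0.34 to 0.48). On the log2 scale the cadherin Dsc2 fell by 1.21 (SE 0.24, adjusted p = 6.04e-04) and Perp, a tetraspan desmosome protein and p53 target, fell by 1.48 (SE 0.24, adjusted p = 1.56e-04). Plakophilin 2 (Pkp2) fell by 0.46 (SE 0.21, adjusted p = 0.0448), but was at 0.01 with library size alone and lost the call also with a mean count of at least 50, with the replicate block and without EV 1, EV 2, Sox4 1 or Sox4 2. The remaining genes, Dsg2 (0.04), Pkp3 (0.12) and Pkp4 (0.23), did not pass. With library size alone Dsg2 (0.51) and Pkp4 (0.70) passed as higher, Pkp4 also without Sox4 1 (0.28), and values below 0 were found for Dsg2 without EV 1 (-0.04) and for Pkp3 without EV 3 or Sox4 3 (both -0.01). Across the filament and partner lists outside the members, 9 of 25 tested genes were higher and 5 lower, against 29.0% and 26.0% of all tested genes.

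Krt8 and Krt18 accumulate in hepatocytes under stress in aggregates called Mallory-Denk bodies, together with the ubiquitin adaptor p62 (Sqstm1), the cross-linking enzyme transglutaminase 2 (Tgm2) and heat shock proteins. Of 6 tested partners of this kind, 2 were lower and none higher, with a median log2 fold change of -0.14. Among all tested genes 26.0% were lower and 29.0% higher. Hspb1 fell from 9.01 ± 3.59 to 3.81 ± 1.19 CPM (log2 change -1.24, SE 0.43, edgeR adjusted p = 0.0110), but with library size alone it was at -0.77 and did not pass. Hspa1b, an inducible chaperone with a near-identical copy in Hspa1a, fell by 2.33 (SE 0.47, adjusted p = 9.27e-04). Sqstm1 was at -0.36 (SE 0.13) and Tgm2 at 0.45 (SE 0.27), without passing. Sqstm1 passed as lower with DESeq2 size factors, DESeq2, limma-voom, the replicate block or without Sox4 replicate 1, and was at 0.10 with library size alone. Tgm2 passed as higher with library size alone, with no filter or without EV 3 or Sox4 3.

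**Figure D5:**
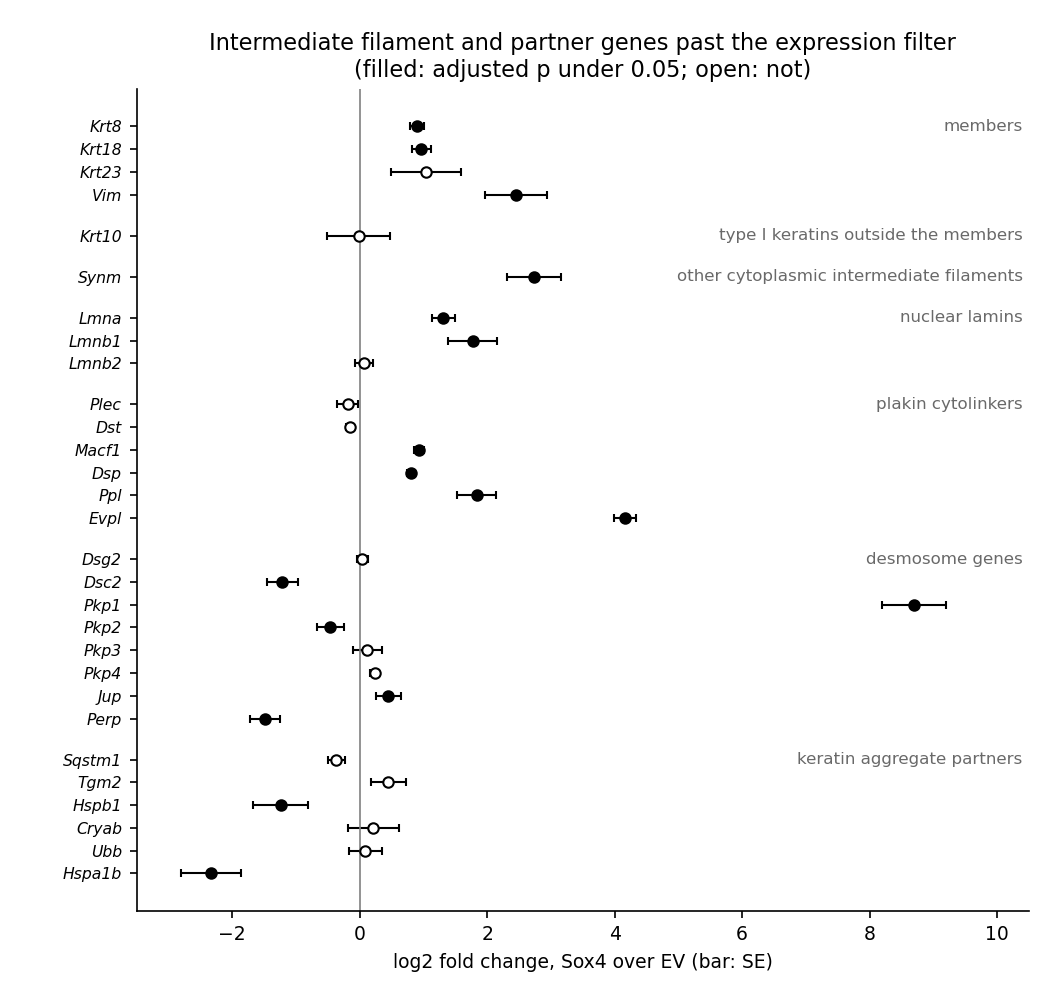
Log2 fold change of Sox4 over EV on the TMM scale (horizontal axis, bars are SE, n = 3 libraries per group) for the tested members and for the tested genes of the filament and partner lists, with filled points for adjusted p under 0.05. Krt8, Krt18 and Dsp lie between 0.81 and 0.97, and the fitted values of Pkp1 and Evpl, with EV libraries at or under 3 counts, depend on the prior count and are no bound.

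The genes whose 6 values were most like each tested member, by the root mean square difference of log2 CPM centred on each gene, were looked up among those with a mean count of at least 100. For Krt8 these were Trp53bp2 (difference 0.0443), Abcc2 (0.0454) and Trip10 (0.0489), and Krt18 came 13th of 9024. Abcc2, the canalicular exporter of conjugated bilirubin, rose from 975 ± 49.4 to 1860.4 ± 230.3 CPM (log2 change 0.93, SE 0.12, edgeR adjusted p = 5.76e-04). For Krt18 they were Akt1 (0.0538), Klhdc7a (0.0622) and Sde2 (0.0662), with Krt8 at rank 5. For Vim they were Rasal2 (0.240), Ano6 (0.295) and E430024I08Rik (0.315), and for Krt23 Tmc7 (0.278), Pprc1 (0.284) and Coq10b (0.285). With 2 groups this likeness follows mostly the size of the difference between them, and it is a description over 6 libraries.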

How the data were processed

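RNA-Seq libraries of hepatocytes (3 EV, 3 Sox4) were grouped and numbered from the sample titles. The authors aligned reads to GRCm39 with STAR and deposited raw counts per gene symbol from featureCounts (2.7.10b and 2.0.1 in the submitters' processing notes). The annotation release, the strand setting and how multi-mapping reads were counted are not given in the sources used here. They also deposited a normalized signal, counts divided by a DESeq2 median-of-ratios size factor per library.

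Counts were analysed with edgeR 4.0.16 in R 4.3.3. Genes were kept by filterByExpr (minimum count 10, minimum total 15), scaled by TMM and compared by quasi-likelihood F tests (robust option) of group alone, with p-values adjusted over all 12691 genes tested (Benjamini-Hochberg, threshold 0.05). Each SE printed beside a log2 fold change was computed from the spread of log2 CPM (prior count 2) within both groups. This filter can be passed through the libraries of a single group, as by Synm, Evpl, Pkp1, Epcam, Cldn4 and Col1a2, with every EV library under 10 counts. Alternatives used DESeq2 1.42.0 and limma 3.58.1. No 2 libraries in a group were alike within counting noise (chi-square per degree of freedom 12.3 to 43.4). The edgeR step was tested on simulated data. Gene length and shared sequence came from GENCODE M21 (GRCm38), windows upstream of genes and gene order from RefSeq (GRCm38.p6). Named were all members, from filament and partner lists the called genes and up to 3 others each, from cell type lists up to 4 genes with the highest mean count, and 3 nearest patterns per tested member. Markers given with their counts because they were at or near 0 (Sctr, Upk3b, Muc16, Lrrn4, Acta2, Ptprc, Msln), Epcam, Cldn4, Gm36026, Krt5, Nes, Des and the genes next to members were chosen after their values were seen. Some genes of the cell type lists are not reported here by name. The members and lists were chosen with earlier results of these data known. Every column of values was used.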

Additional observations from a re-analysis of the deposited data

How the results depend on the processing

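Krt8, Krt18 and Vim kept direction and call under every alternative in which they were tested. Their log2 fold changes lay between 0.83 and 1.38, between 0.84 and 1.44, and between 2.09 and 2.92. Vim and Krt23 were not tested with a mean count of at least 50, since they lie below it. Krt23 was at 1.52 and past the threshold with library size alone, and between 0.65 and 1.64 when a library was left out, past the threshold without EV replicate 3. Members called higher numbered 2 under that stricter filter, 4 with no filter (Krt19 passed) and 3 or 4 otherwise. In the filament and partner lists, 15 genes were higher and 3 lower with library size alone, in place of 9 and 5, where the median of all genes moved from 0.04 to 0.51. Same-numbered libraries deviated from their group means with correlations over genes of 0.33, -0.16 and 0.13. The value for EV 1 and Sox4 1 was the highest of all pairs, whereas Sox4 2 was closest to EV 3 (0.28). The labels do not say whether same-numbered libraries were prepared together, and this was not tested. With the replicate block Krt8 was at 0.90, Krt18 at 0.95, Krt23 at 1.13 and Vim at 2.39, the calls of the members did not change, and 7362 genes were called in place of 6990. Over all alternatives 5937 to 8092 genes were called. Depth limits Krt7, Krt19 and Krt20, which had at most 9 counts in a library.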
